A study of Homo sapiens with 4 samples.

Results

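TRIM genes encode the tripartite motif proteins, most of which are ubiquitin ligases, and the family was examined here in MV4-11 cells upon knockdown of CEBPG. Members were taken by name alone, as every symbol made of TRIM, a number and at most 1 closing letter, plus PML, which carries the same motif. The rule found 45 genes among the 16557 genes of the table, and they were listed as 76 RefSeq transcripts. Of the 45 genes, 44 had values, and TRIM69 had none in any library. MV4-11 is a human AML cell line, and 2 groups of 2 libraries were compared. The sh-NC libraries came from cells with a control hairpin, and the sh-CEBPG#3 libraries from cells with the third hairpin against CEBPG. Per the study's methods, the CEBPG hairpins were carried by the lentiviral vector pLKO.1-puro and infected cells were selected with puromycin. The vector of the control hairpin is not given in the sources used here. A single CEBPG hairpin was sequenced, so an effect of the hairpin and an effect of CEBPG loss cannot be told apart. The labels leave unstated whether replicate libraries stem from separate infections, and p-values measure only the spread between these libraries, which may be technical.

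Tripartite motif proteins carry a RING finger, 1 or more B-box zinc fingers and a coiled coil, followed by a carboxy-terminal part that differs between subfamilies and usually binds the target. The RING finger recruits an E2 enzyme that passes ubiquitin, or a ubiquitin-like protein, to the target. Several members restrict viruses or tune the signalling that follows the sensing of foreign nucleic acids, and some of these are known interferon-stimulated genes. Others act in the nucleus as transcriptional corepressors, on microtubules or in development. PML builds the nuclear bodies that bear its name, and its gene is fused to RARA in acute promyelocytic leukemia.

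The authors' FPKM values (fragments mapped to a transcript, scaled by its length and by the size of the library) totalled 364353 to 389766 per library, and the depth of the libraries is unknown. CEBPG itself was at 30.4 and 33.6 FPKM in sh-NC cells and at 19.2 and 17.1 FPKM upon knockdown, so the groups did not overlap and the targeted gene was lower where the label says so. The 8 markers fixed for an AML cell line were present in every library, with 3.29 FPKM or more, but 7 of the 8 changed. LYZ, MPO, CD33 and SPI1 were higher upon knockdown and MEIS1, HOXA9 and HOXA10 lower, while FLT3, with 62.8 to 75.0 FPKM, was not called. Their summed level was 915 to 994 FPKM in sh-NC and 3391 to 3564 FPKM in sh-CEBPG#3 cells, of which LYZ, the lysozyme of myeloid cells, made up 567 and 610 against 3126 and 2982 FPKM. Values were read for 2 of 8 markers of other cells. COL1A1, a collagen of fibroblasts, stayed under 0.5 FPKM, while KRT8, a keratin of epithelial cells, had 2.29 and 2.35 FPKM in sh-NC and 6.26 and 6.19 FPKM in sh-CEBPG#3 cells. The summed level of the 5 monocyte markers was 73.8 to 86.7 FPKM in sh-NC and 149 to 160 FPKM in sh-CEBPG#3 cells, and 3 of the 4 tested, CD68, CSF1R and FCGR1A, were higher. None of the 5 was at 0 in all libraries, and CD14, at 0 in 1 sh-NC library, had at most 1.09 FPKM. In bulk RNA, a change in the share of a cell type and a change in its RNA per cell cannot be told apart. The part of these cell-type markers in the results was not tested.

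The knockdown moved members of the family in both directions. Among the 39 members abundant enough to be tested, TRIM14, TRIM22, TRIM25, PML and TRIM21 rose most, to between 1.76 and 2.24 times their sh-NC level. TRIM9, TRIM8 and TRIM44 fell most, to between 0.487 and 0.606 of it. The most abundant member, the corepressor TRIM28, did not pass the test, nor did the capsid-binding restriction factor TRIM5.

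A short stretch of DNA near the start of 6 of these genes is shown, since the interferon-stimulated response element (ISRE) is the DNA word through which interferon-activated factors act on several TRIM genes. RefSeq windows on GRCh38.p14 of 250 bases before the start of the gene were matched by symbol for 33 of the 45 members. For PML, TRIM22, TRIM8, TRIM13 and TRIM16L, among others, no window was matched. The search was for GAAA, any 2 bases and GAAA again, on both strands, so that a match on the other strand reads TTTC, any 2 bases and TTTC. Matches are in capitals. The last 100 bases of each window are printed 5′ to 3′ on the strand of the gene. TRIM14, TRIM34, TRIM5 and TRIM44 hold a match, while TRIM25 and TRIM21 stand for members that rose without one in their window.

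TRIM14 (chr9:98119223-98119322, minus strand): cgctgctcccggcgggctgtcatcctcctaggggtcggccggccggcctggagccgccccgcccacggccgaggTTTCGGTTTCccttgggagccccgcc
TRIM34 (chr11:5624901-5625000, plus strand): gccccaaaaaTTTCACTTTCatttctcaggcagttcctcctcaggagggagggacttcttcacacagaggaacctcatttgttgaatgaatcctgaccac
TRIM5 (chr11:5685075-5685174, minus strand): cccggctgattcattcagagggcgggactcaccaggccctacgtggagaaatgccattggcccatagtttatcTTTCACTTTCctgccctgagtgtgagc
TRIM44 (chr11:35662675-35662774, plus strand): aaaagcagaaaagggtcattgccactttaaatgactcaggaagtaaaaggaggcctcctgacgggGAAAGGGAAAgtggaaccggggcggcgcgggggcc
TRIM25 (chr17:56914050-56914149, minus strand): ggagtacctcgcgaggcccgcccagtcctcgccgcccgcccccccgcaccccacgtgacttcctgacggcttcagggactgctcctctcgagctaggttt
TRIM21 (chr11:4393703-4393802, minus strand): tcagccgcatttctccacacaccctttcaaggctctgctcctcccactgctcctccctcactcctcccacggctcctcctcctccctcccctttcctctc

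The word was found in the 250 bases of 8 of the 33 members (24.2%), against 3.07% of the 27305 RefSeq windows of the same length. The members with a match did not share a direction. TRIM14 and TRIM34 rose, TRIM44 fell, TRIM5, TRIM16 and TRIM26 did not pass the test, and TRIM2 and TRIM69 were not tested. Of the 25 windows without a match, 3 belonged to members that rose (TRIM21, TRIM25 and TRIM38) and 5 to members that fell (TRIM9, TRIM36, TRIM41, TRIM59 and TRIM66). The windows of TRIM34 and TRIM16, which hold 2 of the 8 matches, lie inside the annotated gene and not before it. For the other words searched, the shares were close to those of all windows. TTCNNNGAA, the gamma-activated site, was in 2 of 33 windows (6.06%, against 6.78% of all). TTGCNNAA, a form of the C/EBP site, was in 3 (9.09%, against 9.13%) and TGATGNAA, a form of the site shared by C/EBP and ATF proteins, in 1 (3.03%, against 3.19%). A match describes these letters and is not a site of binding. Sequence outside the 250 bases was not searched, so a window without a match does not show that the gene lacks the element.

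Mean levels of the members in MV4-11 cells ran from 0.139 FPKM (TRIM2) to those of TRIM28, and since FPKM values are per length they can be set side by side. TRIM28 had 142 and 151 FPKM in sh-NC cells and 140 and 135 FPKM upon knockdown. It made up 33.4% and 33.5% of the FPKM of all members in sh-NC cells and 27.5% and 27.8% in sh-CEBPG#3 cells. TRIM22 came next with a mean of 44.5 FPKM over the 4 libraries, followed by TRIM25 with 29.9 and TRIM14 with 24.2 FPKM. In all, 11 members had a mean of at least 10 FPKM, 25 lay between 1 and 10 FPKM, 3 between 0.5 and 1 FPKM and 5 below 0.5 FPKM. The median member had 5.21 and 5.13 FPKM in sh-NC cells and 5.47 and 5.34 FPKM upon knockdown. The members summed to 426 and 450 FPKM in sh-NC and to 509 and 487 FPKM in sh-CEBPG#3 cells. Without TRIM28, the sums were 284 and 299 FPKM against 369 and 352 FPKM, so these sums did not overlap between the groups.

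The 5 members below 0.5 FPKM (TRIM2, TRIM3, TRIM17, TRIM45 and TRIM73) were not tested, which left 39 members. None of the 39 passed the filter through 1 group alone. Fold changes are on the log2(FPKM + 1) scale, which understates those of low genes. A member was called at an adjusted p under 0.05 in limma, with Benjamini-Hochberg adjustment over all 12142 genes tested. By this rule 9 members were higher (23.1%, against 18.5% of all genes tested) and 7 were lower (17.9%, against 23.8%), and the other 23 were not called. With the FPKM totals of the libraries set equal, 9 members were higher and 11 lower, and 19.3% of all genes were higher and 28.8% lower. The median log2 fold change was 0.08 over the members and -0.04 over all genes tested. The shares are near those of all genes, so the tested members as a set did not stand out by their number of calls. The threshold of the study, an unadjusted p under 0.05 and a change of more than 2-fold, was set on a DESeq2 fit. With limma on log2(FPKM + 1) in its place, 1 member was higher (2.56%, against 2.36% of all genes) and 0 lower (against 1.05%). This member was TRIM14. By the plain ratio of mean FPKM, TRIM22 (2.002) and TRIM9 (0.487) also lay beyond 2-fold among the tested members.

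**Figure D1:**
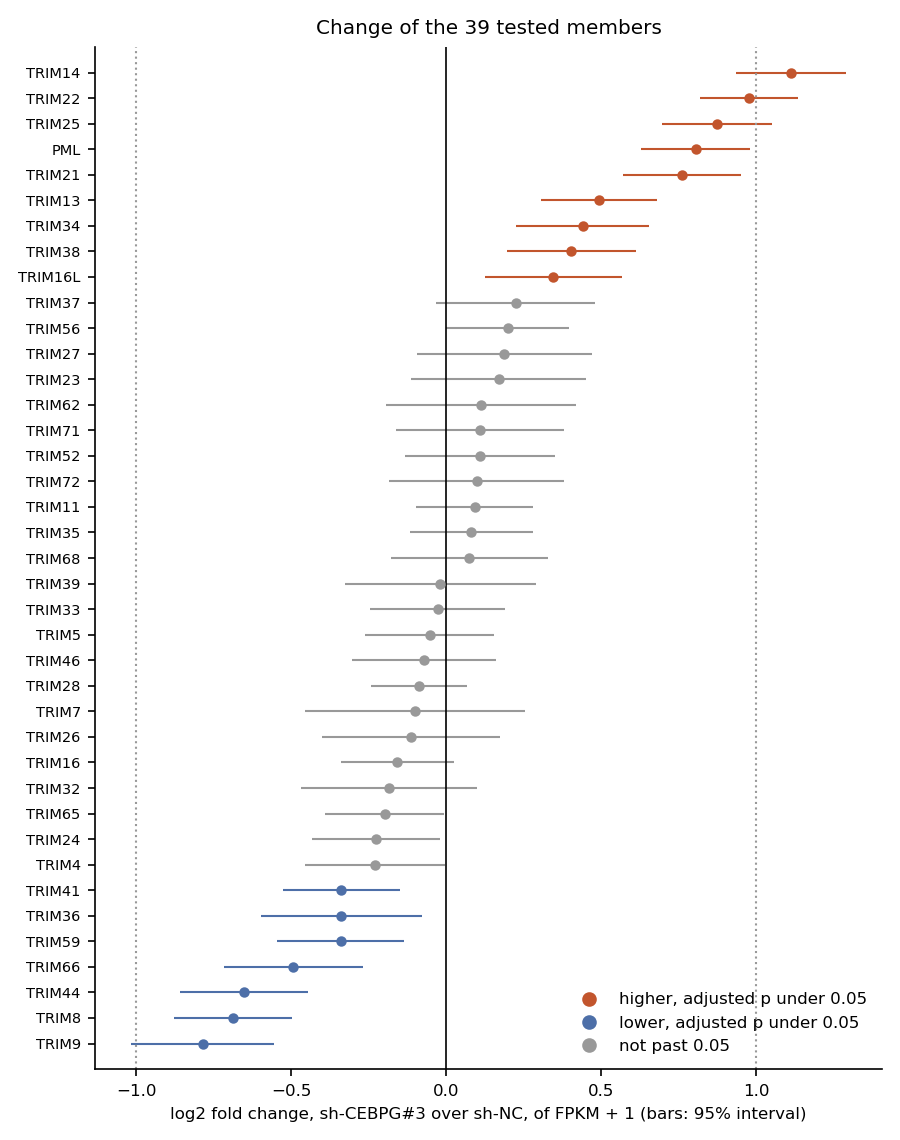
Log2 fold change of FPKM + 1 in sh-CEBPG#3 over sh-NC cells for the 39 tested members, with 95% intervals from limma, orange for the 9 higher, blue for the 7 lower and grey for the 23 not past an adjusted p of 0.05 (dotted lines at a log2 change of 1). The changes run from 1.11 for TRIM14 to -0.79 for TRIM9.

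TRIM14, which lacks the RING finger and acts as an adaptor in antiviral signalling at mitochondria, had 14.2 and 15.7 FPKM in sh-NC cells and 33.6 and 33.2 FPKM upon knockdown. Both knockdown libraries lay above both controls. The mean rose from 14.9 ± 1.01 to 33.4 ± 0.306 FPKM (SD, n = 2 each), or by 1.11 on the log2 scale (standard error 0.08, adjusted p = 4.94e-06 in limma). On GRCh38.p14 (RefSeq) its gene lies on chromosome 9 from 98035797 to 98119222, that of TRIM25 on chromosome 17 from 56887909 to 56914049, and that of PML on chromosome 15 from 73994716 to 74047827. Of those that fell, TRIM8 lies on chromosome 10 from 102644479 to 102658319 and TRIM9 on chromosome 14 from 50975266 to 51095105.

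TRIM22, an interferon-inducible antiviral factor, was the most abundant of the members that were called. It had 29.2 and 30.1 FPKM in sh-NC and 59.9 and 58.7 FPKM in sh-CEBPG#3 cells, so the groups were far apart. The knockdown mean was 2.00 times the control mean, and its change was 0.98 on the log2 scale (standard error 0.07, adjusted p = 5.43e-06 in limma). TRIM22 was therefore at the edge of the 2-fold threshold, and with a pseudocount of 0.01 it passed with 1.00.

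TRIM25, the ligase that modifies the RNA sensor RIG-I, had 19.9 and 21.7 FPKM in sh-NC cells and 40.2 and 37.9 FPKM upon knockdown. It rose without overlap to 1.87 times the control mean, with a log2 fold change of 0.87 (standard error 0.08, adjusted p = 2.26e-05 in limma). TRIM21, a cytosolic receptor for antibodies bound to viruses, had 9.31 and 10.2 FPKM in sh-NC and 17.6 and 16.8 FPKM in sh-CEBPG#3 cells. It rose as well, with a log2 fold change of 0.76 (standard error 0.08, adjusted p = 8.52e-05 in limma).

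PML had 9.97 and 10.1 FPKM in sh-NC and 18.4 and 18.1 FPKM in sh-CEBPG#3 cells when its 7 transcripts were summed. It rose from 10.02 ± 0.067 to 18.3 ± 0.205 FPKM (SD, n = 2 each), or by 0.81 on the log2 scale (standard error 0.08, adjusted p = 3.78e-05 in limma). The 3 most abundant transcripts were each higher in both knockdown libraries. NM_033240 had 3.30 and 3.25 FPKM in sh-NC and 5.81 and 6.09 FPKM in sh-CEBPG#3 cells, and it made up 32.7% and 32.6% of the PML total in the 2 groups. NM_033250 had 2.01 and 2.69 FPKM against 4.96 and 5.07 FPKM, and NM_033239 had 2.51 and 1.89 FPKM against 4.49 and 4.06 FPKM. NM_033238 differed less, with 1.37 and 1.63 FPKM against 1.70 and 1.90 FPKM, and its share went from 14.9% to 9.87%. The other 3 transcripts stayed below 1 FPKM in every library. How the reads were divided among transcripts is an estimate. Of the PML transcripts only NM_033240, the most abundant, was tested alone (0.70, adjusted p = 0.0122 in limma).

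**Figure D2:**
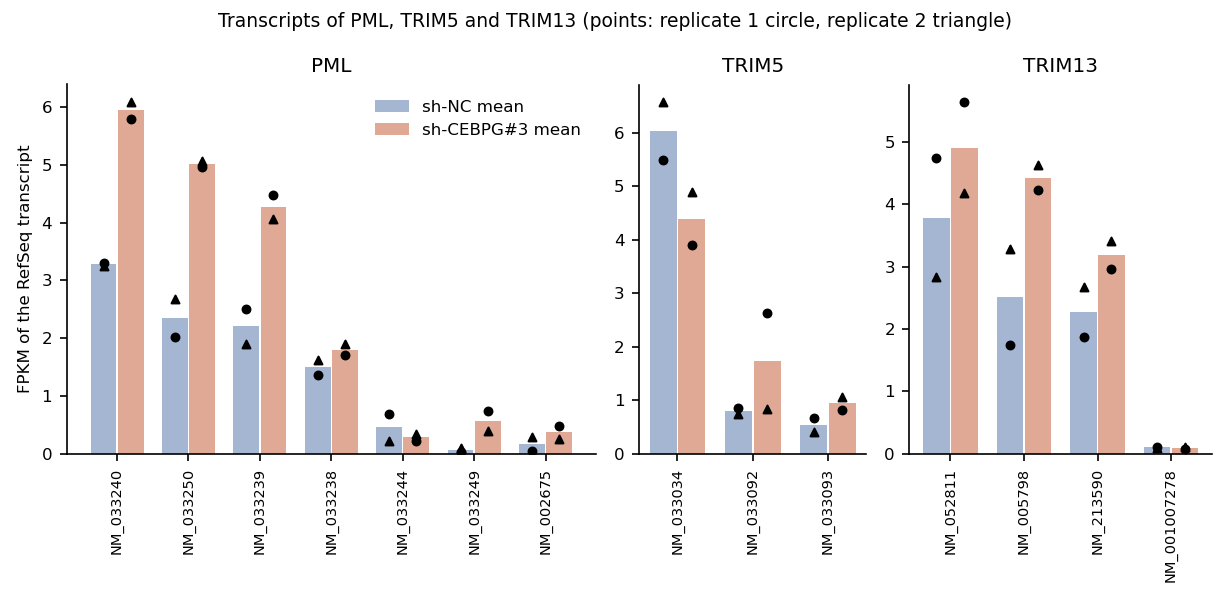
FPKM of each RefSeq transcript of PML, TRIM5 and TRIM13, with bars for the mean of the 2 libraries of a group and points for the libraries (circle replicate 1, triangle replicate 2). The leading PML transcripts are higher in sh-CEBPG#3 cells, while NM_033034 of TRIM5 is lower and NM_033092 differs between the 2 knockdown libraries.

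The other 4 members that rose did so by less. TRIM13, a ligase anchored in the endoplasmic reticulum, had 8.46 and 8.90 FPKM in sh-NC and 12.9 and 12.3 FPKM in sh-CEBPG#3 cells (log2 fold change 0.49, standard error 0.08, adjusted p = 0.00118 in limma). TRIM34, a close relative of TRIM5, went from 3.60 and 3.73 FPKM to 5.14 and 5.52 FPKM (0.44, standard error 0.10, adjusted p = 0.00479 in limma). TRIM38, a regulator of innate immune signalling, went from 5.79 and 6.12 FPKM to 8.65 and 7.78 FPKM (0.40, standard error 0.09, adjusted p = 0.0063 in limma). Within each of these genes the knockdown libraries lay above the controls. TRIM16L went from 3.97 and 4.43 FPKM to 5.80 and 5.42 FPKM (0.35, standard error 0.10, adjusted p = 0.0174 in limma). TRIM16L is a near copy of part of TRIM16, so the reads of these 2 genes may have been shared, and TRIM16 itself had 13.5 and 12.7 FPKM against 11.6 and 11.7 FPKM (-0.16, adjusted p = 0.151 in limma). Without sh-NC replicate 1 or sh-CEBPG#3 replicate 1, the adjusted p of TRIM16L was 0.0939 or 0.0778 in limma. The span of TRIM13 overlaps those of KCNRG and DLEU2. Where exons overlap, their reads cannot be told apart, and the library kit does not mark strand. For the most abundant transcript of TRIM13 alone the log2 fold change was 0.32 (adjusted p = 0.37 in limma).

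Of the members that fell, TRIM9 changed most. TRIM9, a ligase best known from neurons, had 4.57 and 4.38 FPKM in sh-NC cells and 2.28 and 2.07 FPKM upon knockdown. Its mean fell from 4.48 ± 0.130 to 2.18 ± 0.148 FPKM (SD, n = 2 each), which is 0.487 of the control, and the log2 change of FPKM + 1 was -0.79 (standard error 0.10, adjusted p = 0.000243 in limma). Both of its transcripts were lower in both knockdown libraries, NM_015163 with 3.51 and 3.32 FPKM against 1.60 and 1.57 FPKM, and NM_052978 with 1.06 and 1.06 FPKM against 0.682 and 0.505 FPKM. With pseudocounts of 0.1 and 0.01 the change of TRIM9 was -1.01 and -1.04 and passed the threshold of the study.

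TRIM8, a regulator of cytokine and NF-kB signalling, had 17.0 and 18.8 FPKM in sh-NC and 10.9 and 10.6 FPKM in sh-CEBPG#3 cells. The knockdown libraries lay below both controls, with a log2 fold change of -0.69 (standard error 0.08, adjusted p = 0.00016 in limma). TRIM44, which carries a zinc finger of the kind found in ubiquitin proteases in place of the RING finger, had 11.6 and 13.3 FPKM against 7.468 and 7.604 FPKM. Its change on the log2 scale was -0.65 (standard error 0.09, adjusted p = 0.00038 in limma). TRIM66, a chromatin reader of the TRIM28 type that lacks the RING finger, fell from 4.08 and 3.95 FPKM to 2.62 and 2.51 FPKM (-0.49, standard error 0.10, adjusted p = 0.0034 in limma).

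TRIM41, TRIM59 and TRIM36 fell as well, to 0.772, 0.765 and 0.685 of their sh-NC means. TRIM41, a ligase of the PRY-SPRY class, had 10.4 and 10.6 FPKM in sh-NC and 7.90 and 8.35 FPKM in sh-CEBPG#3 cells (-0.34, adjusted p = 0.00976 in limma). TRIM59, which has a transmembrane segment, went from 8.69 and 7.97 FPKM to 6.61 and 6.13 FPKM (-0.34, adjusted p = 0.0139 in limma), and TRIM36, a microtubule-associated member, from 2.04 and 1.90 FPKM to 1.38 and 1.32 FPKM (-0.34, adjusted p = 0.0402 in limma). In each the knockdown libraries lay below the controls. Leaving out single libraries ended some of these calls. TRIM36 passed in no fit with a library left out (adjusted p from 0.0732 to 0.156 in limma), nor with the replicate number as a block, where the adjusted p was 0.051 in limma. TRIM59 did not pass without sh-NC replicate 1 (adjusted p = 0.0701 in limma) or sh-CEBPG#3 replicate 2 (0.0763), and TRIM41 not without sh-CEBPG#3 replicate 1 (0.0577).

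Members were sorted by the carboxy-terminal part, except that the 5 without a RING finger were kept apart whatever that part was. Calls were spread over these classes, and their counts stand against 18.5% higher and 23.8% lower among all genes tested. The PRY-SPRY class is named for the target-binding part of most antiviral members. Of its 18 tested members, 5 rose (TRIM21, TRIM22, TRIM25, TRIM34 and TRIM38), 1 fell (TRIM41) and 12 were not called. The class leaves out TRIM14, TRIM16 and TRIM16L, which lack the RING finger and were counted apart. Of the 3 members in which a COS box, which binds microtubules, precedes a fibronectin repeat and PRY-SPRY, 2 fell (TRIM9 and TRIM36) and TRIM46 was not called (-0.07, adjusted p = 0.613 in limma). Of the 5 members without a RING finger, 2 rose (TRIM14 and TRIM16L), 2 fell (TRIM44 and TRIM66) and TRIM16 was not called. The 2 members with a transmembrane segment moved in opposite directions, TRIM13 up and TRIM59 down. Of the 4 tested members with no further named domain, PML rose, TRIM8 fell, and TRIM52 and TRIM56 were not called. None was called among the 3 with a PHD finger and bromodomain besides the RING finger, while TRIM66, of the TRIM28 type without it, fell. The 2 tested with NHL repeats, TRIM37 with its MATH domain and TRIM23 with its ARF domain were not called. TRIM45, placed by its filamin repeat, was not tested.

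**Figure D3:**
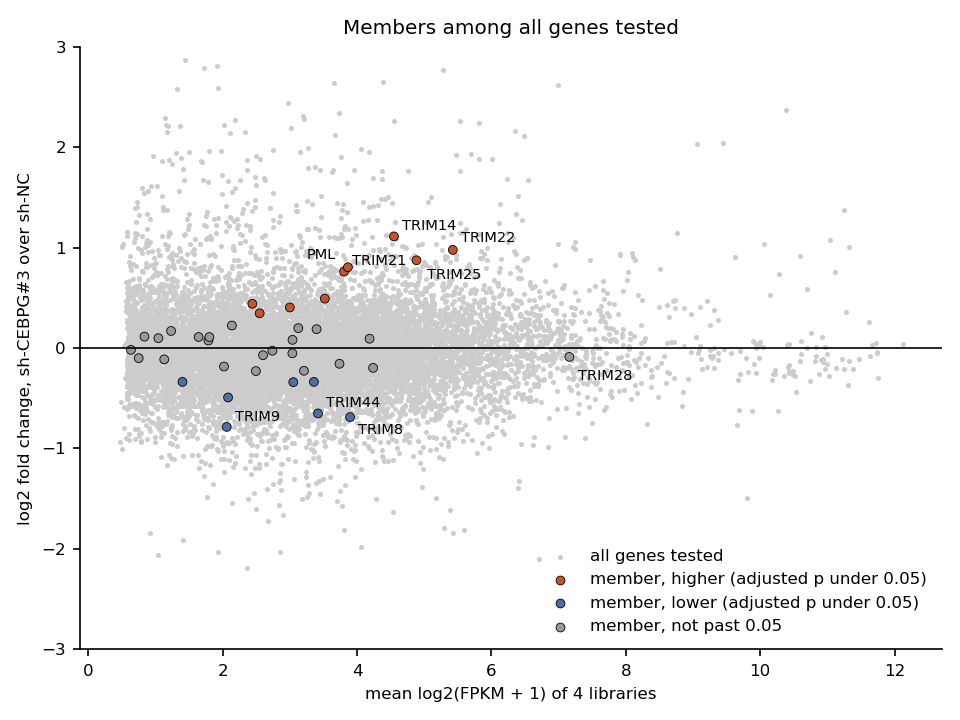
Log2 fold change against mean log2(FPKM + 1) for the 12142 genes tested (light grey) and the 39 members (larger points, orange higher, blue lower, dark grey not called), with 15 genes beyond the axis not drawn. TRIM14, TRIM22, TRIM25, PML and TRIM21 have higher log2 fold changes than 95.9% to 98.1% of all genes tested, and TRIM28 lies near 0.

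The 23 members that were not called had log2 fold changes from -0.23 (TRIM4) to 0.22 (TRIM37), with 95% intervals reaching at most from -0.47 to 0.48. A p that missed the threshold does not show that a member was level. In 11 of the 23 the groups did not overlap, and 4 of them (TRIM56, TRIM65, TRIM24 and TRIM4) had an unadjusted p under 0.05 in limma. Over all genes tested, the groups did not overlap in 71.7%, and over the tested members in 27 of 39 (69.2%).

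TRIM28, which silences retroelements together with zinc finger proteins, had a log2 fold change of -0.09 (95% interval -0.24 to 0.07, adjusted p = 0.338 in limma). With quantile normalization or equal FPKM totals its adjusted p was 0.0114 or 0.0231 in limma, at -0.13 and -0.11. TRIM24, which promotes the degradation of p53, had 8.44 and 9.61 FPKM in sh-NC and 7.52 and 7.59 FPKM in sh-CEBPG#3 cells (-0.23, adjusted p = 0.0737 in limma), and it passed with equal FPKM totals (adjusted p = 0.0244) and without sh-NC replicate 1 (0.0367). TRIM33, a regulator of SMAD signalling and blood cell formation, had 5.67 and 5.82 FPKM against 6.005 and 5.256 FPKM, so its groups overlapped (-0.03, adjusted p = 0.849 in limma).

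TRIM5, which binds the capsid of incoming retroviruses, had 7.01 and 7.72 FPKM in sh-NC and 7.34 and 6.80 FPKM in sh-CEBPG#3 cells. The groups overlapped, and the log2 fold change was -0.05 (95% interval -0.26 to 0.16, adjusted p = 0.685 in limma). Its main transcript NM_033034 was lower in both knockdown libraries, with 5.49 and 6.58 FPKM against 3.90 and 4.90 FPKM, and its share of the gene went from 81.9% to 62.2%. This transcript alone did not pass the test (-0.38, adjusted p = 0.119 in limma). NM_033092 had 0.862 and 0.746 FPKM against 2.62 and 0.838 FPKM, so it was high in 1 of the 2 knockdown libraries.

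Among other members with a role in innate immunity, TRIM56 had 6.89 and 7.43 FPKM in sh-NC and 8.50 and 8.21 FPKM in sh-CEBPG#3 cells (0.20, adjusted p = 0.0981 in limma), and it passed with quantile normalization (adjusted p = 0.0187). TRIM65, which acts on the RNA sensor MDA5, had 18.2 and 20.4 FPKM against 17.2 and 16.1 FPKM (-0.20, adjusted p = 0.091 in limma), and it passed with quantile normalization (adjusted p = 0.0346), with the totals set equal (0.0155), and with sh-NC replicate 1 left out (0.0254). TRIM26 had 1.18 and 1.38 FPKM against 1.20 and 1.02 FPKM, so the groups overlapped (-0.11, adjusted p = 0.512 in limma).

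Several members of other function were not called either. TRIM11 had 16.3 and 17.0 FPKM in sh-NC and 18.8 and 16.9 FPKM in sh-CEBPG#3 cells (0.09, adjusted p = 0.406 in limma). TRIM32, a ligase linked to muscle disease, had 2.90 and 3.80 FPKM against 3.02 and 2.60 FPKM (-0.18, adjusted p = 0.269 in limma). TRIM37, a ligase that limits centrosome assembly, had 3.28 and 2.87 FPKM against 4.13 and 3.41 FPKM (0.22, adjusted p = 0.145 in limma). The groups of TRIM11 and TRIM32 overlapped, and those of TRIM37 did not. TRIM32 also differed between its transcripts, as NM_001099679 went from a mean of 1.37 to 1.74 FPKM and NM_012210 from 1.98 to 1.07 FPKM.

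Members on the same chromosome, some of them adjacent, had unlike values. On the short arm of chromosome 11 (GRCh38, RefSeq), TRIM5 (5588635 to 5685074), TRIM34 (5619944 to 5644398) and TRIM22 (5689790 to 5710863) are adjacent or overlap, and their log2 fold changes were -0.05, 0.44 and 0.98. TRIM34 lies within the span of TRIM5 on the other strand, and the reads of exons that overlap cannot be told apart. Elsewhere on this arm, TRIM21 (4384897 to 4393702) rose, TRIM68 (4598672 to 4608231) was not called (0.08, adjusted p = 0.629 in limma) and TRIM66 (8612040 to 8683231) fell. On chromosome 6, TRIM38 (25962802 to 25991231) rose, while TRIM27 (28903002 to 28923985), TRIM26 (30184455 to 30213406) and TRIM39 (30326469 to 30343729) were not called. At the end of chromosome 5, TRIM41 (181223281 to 181235808) fell, and TRIM7 (181193924 to 181205196) and TRIM52 (181249062 to 181261143) on either side of it were not called. The differences between these members were not tested.

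Genes that work with these members were counted by lists, again against 18.5% higher, 23.8% lower and a median of -0.04 over all genes tested. The lists were chosen with earlier results of these data known and some of their genes were left out, so the counts only describe them. Of the 14 tested genes of PML nuclear bodies, 5 rose, 1 fell and 8 were not called, with a median log2 fold change of 0.08. SP110, a nuclear body protein, rose from 4.45 and 5.84 FPKM to 15.9 and 15.0 FPKM (1.43, adjusted p = 8.67e-06 in limma), and SP100, a resident of every such body, rose from 10.3 and 10.3 FPKM to 14.4 and 14.8 FPKM (0.47, adjusted p = 0.00125). HIPK2, MORC3 and RNF4 rose by 0.42, 0.37 and 0.33, and USP7, a ubiquitin protease, fell by 0.55. SUMO2 and SUMO3, modifiers that PML carries, and DAXX were not called.

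In the chain from RIG-I, which TRIM25 modifies, 6 of the 12 tested genes rose (18.5% of all genes did), 1 fell and 5 were not called, with a median of 0.26. Both sensors rose, DDX58 (RIG-I) from 3.12 and 2.95 FPKM to 9.86 and 9.37 FPKM (1.40, adjusted p = 2.98e-06 in limma) and IFIH1 (MDA5) from 1.47 and 1.92 FPKM to 9.17 and 8.50 FPKM (1.87, adjusted p = 1.42e-06). The transcription factor IRF7 rose by 1.67, and DHX58, IKBKE and ZC3HAV1 also rose. The adaptor MAVS fell by 0.24 (adjusted p = 0.0445 in limma), and RNF135, another ligase of RIG-I, was not called (0.12, adjusted p = 0.269).

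Of the 10 partners of TRIM28 in silencing, 5 fell (23.8% of all genes did), 1 rose and 4 were not called, with a median of -0.24. CHD3, a chromatin remodeler, fell from 24.8 and 26.3 FPKM to 12.3 and 11.8 FPKM (-1.02, adjusted p = 7.93e-06 in limma). DNMT1, HDAC1, CBX1 and CHD4 fell by 0.58, 0.52, 0.44 and 0.22, and CBX5 rose by 0.40. SETDB1, the histone methyltransferase brought in by TRIM28, was not called (-0.18, adjusted p = 0.091 in limma).

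Of the 14 listed genes of the E2 enzyme family, 5 rose (against the same 18.5%), 1 fell and 8 were not called, with a median of 0.17. UBE2L6, the E2 for the ubiquitin-like protein ISG15, rose from 8.07 and 8.22 FPKM to 34.6 and 34.4 FPKM (1.96, adjusted p = 7.88e-08 in limma). UBE2W, an E2 that TRIM5 and TRIM21 use, rose from 4.53 and 4.94 FPKM to 9.37 and 8.62 FPKM (0.80, adjusted p = 0.000116), while UBE2N, which acts after it, was not called (0.16, adjusted p = 0.11). UBE2E3 fell from 15.2 and 13.7 FPKM to 5.50 and 4.53 FPKM (-1.36, adjusted p = 7.21e-06).

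**Figure D4:**
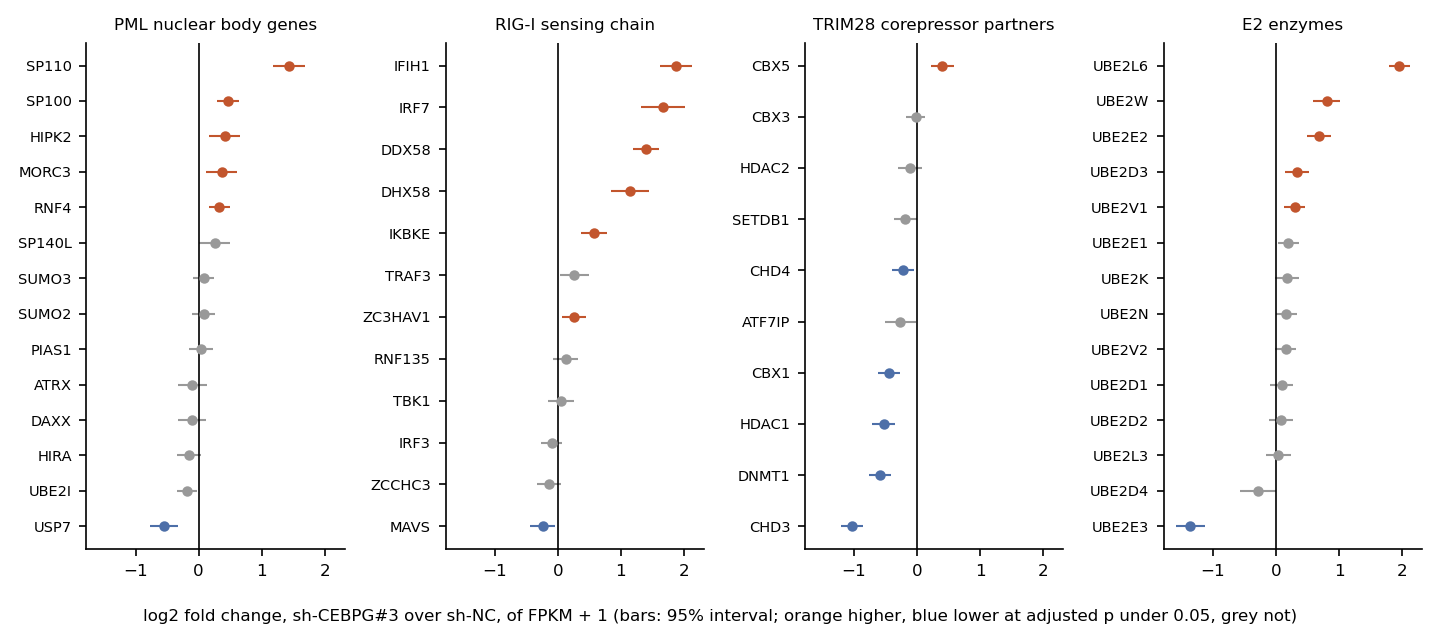
Log2 fold change of FPKM + 1 in sh-CEBPG#3 over sh-NC cells, with 95% intervals from limma, for the tested genes of PML nuclear bodies, the RIG-I chain, the TRIM28 corepressor and the E2 enzymes (orange higher, blue lower, grey not called). SP110, IFIH1 and UBE2L6 lead their panels, at 1.43, 1.87 and 1.96, and CHD3 and UBE2E3 are lowest in theirs, at -1.02 and -1.36.

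Genes of interferon signalling moved in the same libraries. Of 10 tested, 6 rose (against 18.5% of all genes tested) and 4 were not called, with a median log2 fold change of 0.89. The 4 were JAK1 (-0.07), TYK2 (0.001), IFNAR1 (0.05) and IRF1 (0.12). IRF9 is a subunit of the interferon-activated factor that binds the ISRE. It rose from 3.99 and 4.13 FPKM to 31.4 and 29.9 FPKM (2.64, adjusted p = 1.65e-08 in limma). MX1 was too low to be tested, with 0.122 and 0.235 FPKM in sh-NC and 0.230 and 0.200 FPKM in sh-CEBPG#3 cells. IFNB1 stayed at or below 0.188 FPKM in every library. MEFV, a tripartite motif gene outside the naming rule, rose from 1.90 and 2.52 FPKM to 5.53 and 5.03 FPKM (0.97, adjusted p = 0.000155 in limma). The part of interferon signalling in the changes of the TRIM genes was not tested.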

How the data were processed

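RNA of MV4-11 cells was sequenced in 2 sh-NC and 2 sh-CEBPG#3 libraries. Per the labels and methods, the authors made libraries with a TruSeq RNA kit, filtered the reads, mapped them to hg38 (the submitters' notes name HISAT2 2.0.5) and deposited FPKM values per RefSeq transcript. The program behind the FPKM values and the annotation version are not given in the sources used here. Of 28780 transcripts, 199 had no value. Values were summed by gene. Of 1027 transcripts under 0.06 FPKM in both sh-NC libraries, at most 0.389% shared a ratio between them (to 3 decimals), so whole reads were not recovered, no count test was run and no detection limits are given.

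Log2(FPKM + 1) values were compared for the 12142 genes whose mean reached 0.5 FPKM, with limma 3.58.1 in R 4.3.3 (lmFit, eBayes with a trend), after tests on simulated data. Adjustment was by Benjamini-Hochberg over these genes. With 2 libraries a group an exact permutation test cannot go below p = 0.333, so p-values rest on the variance model of limma. The members, gene lists and the rule for named genes (those past an adjusted p of 0.05, the 10 most abundant and a list of members with known roles) were chosen with earlier results of these data known. Some genes of the lists are not reported here and were left out of the counts, and the list genes named were chosen after their values were seen. Promoter windows and positions are from RefSeq (GRCh38.p14), searched with Python 3.11.15. Alternatives covered pseudocount, filter, scaling, variance model, the replicate number as a block, single transcripts and each library left out.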

Additional observations from a re-analysis of the deposited data

How the results depend on the processing

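Across 13 alternatives, 7 to 10 members were higher. The number that were lower was 7 with the reported settings, 11 with equal FPKM totals and 5 to 9 otherwise. The number past the threshold of the study was 1, and 2 and 3 with pseudocounts of 0.1 and 0.01, which added TRIM9 and then TRIM22. Of the 16 called members, 16 kept their call and direction with either pseudocount, a minimum mean of 1 FPKM, quantile normalization, equal totals and no variance trend, 14 without a filter, 12 by the most abundant transcript and 13 to 15 with a library left out. The lone library of a group is then assumed to vary like the others. TRIM14, TRIM22, TRIM25, PML, TRIM21, TRIM9, TRIM8, TRIM44, TRIM66, TRIM34 and TRIM38 kept theirs in every alternative. Signs were followed for 27 of the tested members, and among these they changed only for members that were not called. TRIM32 (-0.18) was 0.22 by its most abundant transcript. TRIM33 (-0.03) was 0.0071 with quantile normalization and between -0.11 and 0.055 when each library was left out in turn, as TRIM5 (-0.05) was between -0.11 and 0.0088. For all of these the cause was not tested.

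Across genes, the deviations of libraries with the same number had a correlation of 0.061, and no label says that numbers mark pairs. With the replicate number as a block, 9 members were higher and 6 lower, and TRIM36 was lost. Without counts, low members could not be weighted by depth.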
